A study of Mus musculus with 18 samples.

Results

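Hes1 and Poglut1 are the genes described here, 2 of 40620 rows in a table of read counts. The cells were MC3T3-E1, a preosteoblast line that was derived from the calvaria of newborn mice. Both genes belong to the Notch pathway and lie on chromosome 16, and they were selected on their levels over time in these libraries, then taken from the table by symbol. The levels over time are therefore given as a description without a test, and tests are kept for the hairpin comparison and for other genes of the pathway. Those other genes were also chosen with earlier results of these data known, so their p-values over time are not free of that choice. The cells carried 1 of 3 short hairpin constructs, shRcor2-18 or shRcor2-20, which target Rcor2, a corepressor of the CoREST family, or the control shScramble. Samples of each construct were taken at 0h, 24h and 7d of osteogenic differentiation, which gave 9 groups and 18 libraries. All groups share the wild-type line and a hairpin construct, and the labels give no age, clone or animal. The differentiation medium held dexamethasone, ascorbic acid and beta-glycerophosphate; the protocol names a proliferating and a confluent harvest before induction without saying which of them 0h was, and it does not mention 7d. Whether the 2 samples within a group came from different cultures is not stated, so the spread behind each p-value may be technical.

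Notch receptors are cell surface proteins that ligands on a neighbouring cell activate. The receptor is then cut, and its freed intracellular part joins the DNA-binding protein RBPJ and coactivators in the nucleus to switch on target genes, of which Hes1 is the best known. Hes1 is a basic helix-loop-helix repressor that binds E boxes and N boxes in DNA and recruits corepressors of the Groucho/TLE family. Poglut1 is the endoplasmic reticulum enzyme that adds O-linked glucose to the EGF-like repeats of Notch receptors, and Xxylt1 later extends the same sugar chain with xylose. In bone, Notch activity is known to hold osteoblast precursors back from differentiating.

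The last 30 coding bases of each transcript, stop codon included, show the parts by which the proteins act or are kept in place. They were read from the GENCODE vM21 transcripts on GRCm38, at chr16:30067399-30067428 on the plus strand for Hes1 and at chr16:38526625-38526654 on the minus strand for Poglut1. Capitals mark, in Hes1, the codons of the motif that binds Groucho/TLE corepressors and, in Poglut1, the codons of the signal at the end of the protein that retains it in the endoplasmic reticulum.
Hes1: gactccatgTGGAGACCGTGGcggaactga
Poglut1: gttcccagacgtttgAAAACTGAACTGtag

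The promoters of the enzymes that start and end this sugar chain are shown because both genes act on the same sugar of Notch receptors. Both are RefSeq windows on GRCm38.p6 of 250 bases before and 50 bases after the start of the gene, at chr16:38550207-38550506 for Poglut1 and chr16:31081383-31081682 for Xxylt1, both on the minus strand. Capitals mark matches on either strand to TGGGAA, the core of the RBPJ site, to CACGTG, an E box, and to CACNAG, an N box.
Poglut1: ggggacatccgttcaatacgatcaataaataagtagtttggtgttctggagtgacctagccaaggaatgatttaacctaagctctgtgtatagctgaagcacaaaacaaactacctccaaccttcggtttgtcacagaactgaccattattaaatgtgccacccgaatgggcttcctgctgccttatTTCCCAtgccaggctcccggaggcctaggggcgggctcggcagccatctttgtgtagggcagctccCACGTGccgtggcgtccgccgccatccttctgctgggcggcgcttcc
Xxylt1: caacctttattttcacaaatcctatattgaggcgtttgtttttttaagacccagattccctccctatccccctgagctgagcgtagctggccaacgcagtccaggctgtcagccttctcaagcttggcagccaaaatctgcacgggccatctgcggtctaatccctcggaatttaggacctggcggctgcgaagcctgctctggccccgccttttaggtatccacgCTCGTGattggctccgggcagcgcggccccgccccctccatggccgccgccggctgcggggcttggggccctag

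The Poglut1 window held TGGGAA, read on the opposite strand, from position -63 relative to the start, and CACGTG from position 4. The Xxylt1 window held CACNAG, on the opposite strand, from position -24, and neither of the other motifs. The matches did not overlap. Of all 32851 windows of this length, 25.6% held TGGGAA, 7.15% CACGTG and 42.5% CACNAG. Windows were found for 9 of the 12 pathway genes described here, 11 windows in all, of which 1 held TGGGAA, 3 CACGTG and 4 CACNAG. Hes1, Snai2 and Nepro had no window, so these counts say nothing of their promoters. A match is a string of letters and not a site known to be bound.

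Only the chromosome 16 coding genes between Mefv and Cbr3 were used, 610 rows with both ends, since row names elsewhere in the table may not stand beside their own counts. Hes1 is gene 255 and Poglut1 gene 363 of the 610 in chromosome order, and the test across genes covered 373 of the 610. The 3 libraries of sample 1 at 0h stood apart and were left out: this stretch took 11.7% to 12.5% of their counts, against 6.95% to 7.79% in the 15 other libraries. Those 15 held 3504808 to 6139315 counts each. Levels are given as CPM, with the tested chromosome 16 genes alone as the library total and after TMM scaling, so they are larger than CPM over a whole transcriptome. Rcor2 and the osteoblast markers lie on other chromosomes and were not used here, so neither the knockdown nor the cell identity was checked from them. Of 32 markers of other cell types in the stretch, 21 stayed under 20 CPM in every library, 9 of them with no count at all. Trp63, Cldn1, Cd80 and Gp1bb exceeded 100 CPM in every library. Trp63, Cd80 and Gp1bb were far over this limit, with at least 2586, 2227 and 2127 CPM. Whether row names within the stretch stand beside their own counts was not tested.

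Hes1 was far lower at 24h and at 7d than at 0h, in all 3 constructs. At 0h it had 401 CPM with shRcor2-18, 321 CPM with shRcor2-20 and 346 CPM with shScramble, from 126, 88 and 106 reads. At 24h it had 14.1 and 22.7 CPM with shRcor2-18, 50.6 and 49.6 CPM with shRcor2-20, and 23.2 and 43.8 CPM with shScramble. At 7d it had 34.4 and 58.8 CPM with shRcor2-18, 37.6 and 71.1 CPM with shRcor2-20, and 26.5 and 43.2 CPM with shScramble. Every 0h library lay above every later one, by a wide gap, while the libraries of 24h and 7d overlapped. The later values rest on few reads, 4 to 16 per library at 24h and 7 to 23 at 7d.

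**Figure D1:**
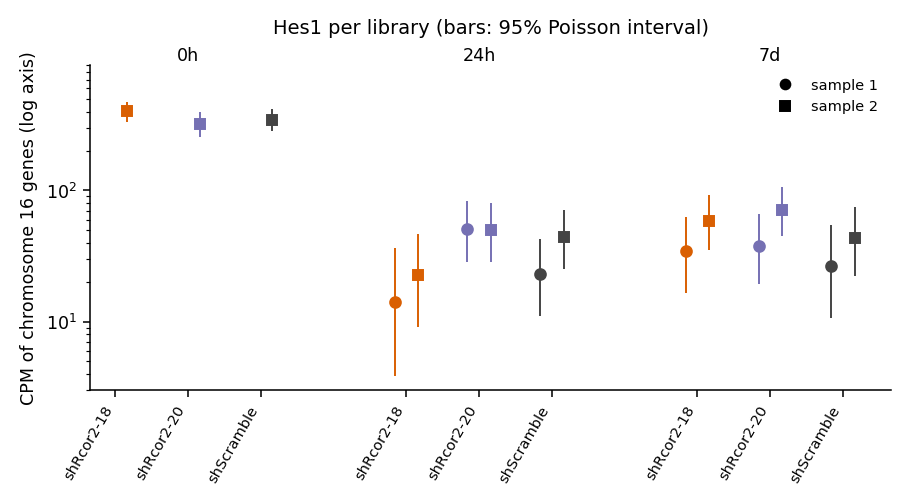
Hes1 level of each library in CPM of chromosome 16 genes, on a log axis, by time and construct; circles are sample 1, squares are sample 2, and bars are 95% Poisson intervals of the read count, which cover counting error only. The 3 libraries at 0h lie between 321 and 401 CPM, and the 12 later ones between 14.1 and 71.1 CPM.

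Hes1 averaged 356 ± 40.8 CPM at 0h (SD, n = 3), 34.0 ± 15.8 CPM at 24h (SD, n = 6) and 45.3 ± 16.6 CPM at 7d (SD, n = 6). The fitted log2 difference was -3.48 (SE 0.32) for 24h minus 0h, an 11.2-fold lower level, which was the lowest of the 373 genes. For 7d minus 0h the log2 difference was -2.98 (SE 0.31), 7.87-fold lower, with 1 gene lower still. The 0h libraries used are all sample 2, and at 7d sample 2 had more Hes1 than sample 1 with each construct. Restricted to sample 2, Hes1 averaged 38.7 ± 14.2 CPM at 24h and 57.7 ± 14.0 CPM at 7d (SD, n = 3 each). Between 24h and 7d the log2 difference was 0.50 (SE 0.31), 7d being higher, and the libraries overlapped. As background to these ranks, edgeR's quasi-likelihood test at an adjusted p of 0.05 called 5.63% of the 373 genes for 24h minus 0h, 23.3% for 7d minus 0h and 15.8% for 7d minus 24h. Libraries of the compared times did not overlap in 16.1% of genes for 24h against 0h, 30.3% for 7d against 0h and 12.1% for 7d against 24h. RNA was taken from whole cultures, in which fewer cells that express Hes1 and less Hes1 RNA per cell cannot be told apart.

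The omitted sample 1 libraries at 0h also had high Hes1. Scaled together with the rest, they had 239 CPM with shRcor2-18, 406 CPM with shRcor2-20 and 237 CPM with shScramble. With them in place of sample 2 at 0h, the log2 difference of Hes1 was -3.16 for 24h minus 0h and -2.65 for 7d minus 0h. With all 18 libraries it was -3.34 and -2.84 for the same comparisons.

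Ranked by level, the Hes1 groups below 0h ran from shRcor2-20 at 7d, with 54.3 ± 23.7 CPM, down to shRcor2-18 at 24h, with 18.4 ± 6.02 CPM (SD, n = 2 each). Between them lay shRcor2-20 at 24h, shRcor2-18 at 7d, shScramble at 7d and shScramble at 24h, in this falling order, with 50.1, 46.6, 34.8 and 33.5 CPM. Neighbours in this order overlapped, except that both shRcor2-18 libraries at 24h, with up to 22.7 CPM, lay just under both shScramble libraries at 24h, with at least 23.2 CPM. The shRcor2-18 libraries at 24h also lay below those of shRcor2-20, a difference between hairpins that was not tested.

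Poglut1 was abundant at all times and varied little. At 0h it had 3174 CPM with shRcor2-18, 3210 CPM with shRcor2-20 and 3555 CPM with shScramble. At 24h it had 4568 and 3501 CPM with shRcor2-18, 4375 and 3874 CPM with shRcor2-20, and 4484 and 4008 CPM with shScramble. At 7d it had 4711 and 3480 CPM with shRcor2-18, 3585 and 3280 CPM with shRcor2-20, and 4327 and 3538 CPM with shScramble. The libraries of every pair of times overlapped, and read counts were between 880 and 1936 per library.

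**Figure D2:**
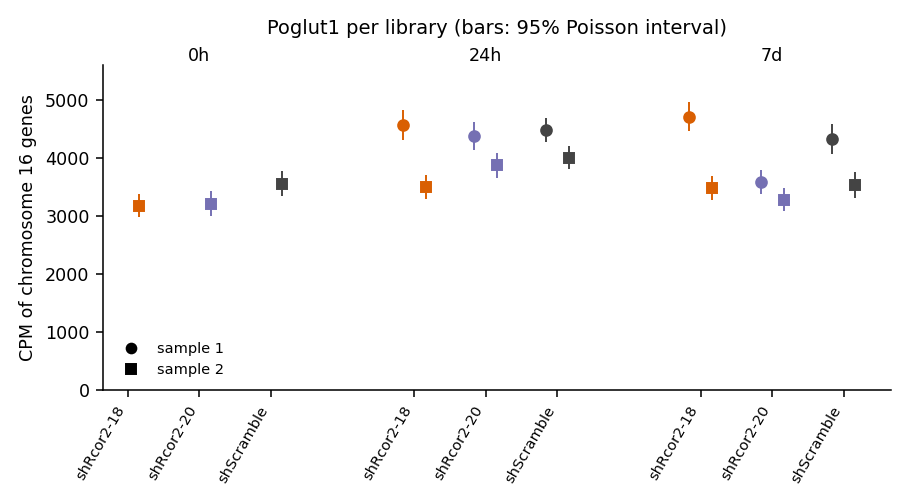
Poglut1 level of each library in CPM of chromosome 16 genes, on a linear axis from 0, by time and construct; circles are sample 1, squares are sample 2, and bars are 95% Poisson intervals, which cover counting error only. In each group with both samples, sample 1 lies above sample 2, and the libraries of sample 2 lie between 3174 and 4008 CPM at all 3 times.

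Poglut1 averaged 3313 ± 210 CPM at 0h (SD, n = 3), 4135 ± 413 CPM at 24h (SD, n = 6) and 3820 ± 564 CPM at 7d (SD, n = 6). The log2 difference was 0.32 (SE 0.13) for 24h minus 0h, 0.20 (SE 0.13) for 7d minus 0h and -0.12 (SE 0.10) for 7d minus 24h. In the 6 groups with both samples, sample 1 had more Poglut1 than sample 2, and the 0h libraries used are all sample 2. Restricted to sample 2, Poglut1 averaged 3794 ± 262 CPM at 24h and 3433 ± 135 CPM at 7d (SD, n = 3 each), and the log2 differences from 0h were 0.19 and 0.05. With sample 1 at 0h in place of sample 2 they were 0.10 and -0.02, the second with the sign turned. The omitted libraries had 3740 CPM with shRcor2-18, 4121 CPM with shRcor2-20 and 3853 CPM with shScramble.

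The order of the Poglut1 groups ran from shScramble at 24h, with 4246 ± 337 CPM (SD, n = 2), down to the single shRcor2-18 library at 0h, with 3174 CPM. The 3 groups at 24h and shRcor2-18 at 7d lay at the top, between 4034 and 4246 CPM on average, and overlapped one another. The 3 groups at 0h and shRcor2-20 at 7d lay at the bottom, between 3174 and 3555 CPM, with shScramble at 7d between the 2 sets at 3933 ± 558 CPM (SD, n = 2). Per kilobase of annotated exon, which allows levels of different genes to be compared, Poglut1 stood at 711 CPM per kb at 0h, 888 at 24h and 820 at 7d, against 175, 16.7 and 22.2 CPM per kb for Hes1. Poglut1 thus had the higher level per kb at each time.

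Silencing of Rcor2 was the comparison the constructs were made for. Averaged over both hairpins, neither gene differed from shScramble beyond the spread between samples. At 24h, Hes1 averaged 34.2 ± 18.6 CPM with both hairpins (SD, n = 4) and 33.5 ± 14.6 CPM with shScramble (SD, n = 2). At 7d it averaged 50.5 ± 17.5 CPM with both hairpins (SD, n = 4) and 34.8 ± 11.7 CPM with shScramble (SD, n = 2). The hairpin libraries overlapped those of shScramble at both times.

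Over 24h and 7d together, the log2 difference of hairpins minus shScramble was 0.20 for Hes1 (SE 0.33, 95% interval -0.54 to 0.94, adjusted p = 0.97 by edgeR's quasi-likelihood test). For Poglut1 it was -0.06 (SE 0.11, 95% interval -0.31 to 0.18, adjusted p = 0.97 by the same edgeR test). At 24h alone the Hes1 difference was -0.12 (95% interval -1.14 to 0.90), and at 7d alone 0.53 (95% interval -0.51 to 1.56). As folds, the Hes1 interval ran from 0.455 to 1.86 at 24h and from 0.70 to 2.96 at 7d, with 4 to 23 reads per library behind it. For Poglut1 the difference was -0.06 at 24h (95% interval -0.40 to 0.29) and -0.07 at 7d (95% interval -0.41 to 0.28).

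At 0h, where each construct had 1 library, the log2 difference of hairpins minus shScramble was 0.05 for Hes1 (SE 0.52) and -0.16 for Poglut1 (SE 0.22). The change of the hairpin difference between 24h and 7d was 0.64 for Hes1 (SE 0.66) and -0.01 for Poglut1 (SE 0.22), with an adjusted p of 1.00 for both by edgeR. The background of these comparisons was 0% of 373 genes called by edgeR at an adjusted p of 0.05. At an unadjusted p of 0.05, edgeR passed 7 genes for 24h and 7d together, 3 for 24h, 6 for 7d, 38 for 0h and 4 for the change between times, and DESeq2 also called 0 genes in each at an adjusted p of 0.05.

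The libraries resembled others across constructs. Sample 1 of shRcor2-18 and sample 1 of shScramble were each other's closest library over the chromosome 16 genes, at 24h (r = 0.991) and at 7d (r = 0.982). Between these libraries, Hes1 had 14.1 CPM with shRcor2-18 and 23.2 CPM with shScramble at 24h, and 34.4 CPM with shRcor2-18 and 26.5 CPM with shScramble at 7d. Poglut1 had 4568 CPM with shRcor2-18 and 4484 CPM with shScramble at 24h, and 4711 CPM with shRcor2-18 and 4327 CPM with shScramble at 7d. Sample 1 of shRcor2-20 and sample 2 of shScramble were each other's closest library at 7d (r = 0.979), with 37.6 CPM of Hes1 with shRcor2-20 and 43.2 CPM with shScramble, and 3585 CPM of Poglut1 with shRcor2-20 and 3538 CPM with shScramble. At 24h the same samples were not each other's closest library. There they had 50.6 CPM of Hes1 with shRcor2-20 and 43.8 CPM with shScramble. Of Poglut1 they had 4375 CPM with shRcor2-20 and 4008 CPM with shScramble. In these 4 pairs, Hes1 was higher with the hairpin in 2 and lower in 2. Poglut1 was higher with the hairpin in all 4, by 0.02 to 0.13 on the log2 scale, against the fitted -0.06. The hairpin library was sample 1 in all 4 pairs, and in the shRcor2-20 pairs the shScramble library was sample 2. Since sample 1 had more Poglut1 than sample 2 in each group with both, the shRcor2-20 pairs cannot part hairpin from sample. At their time, the 4 libraries of sample 1 of shRcor2-18 and shScramble were among the 3 lowest for Hes1 and were the highest 2 for Poglut1.

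**Figure D3:**
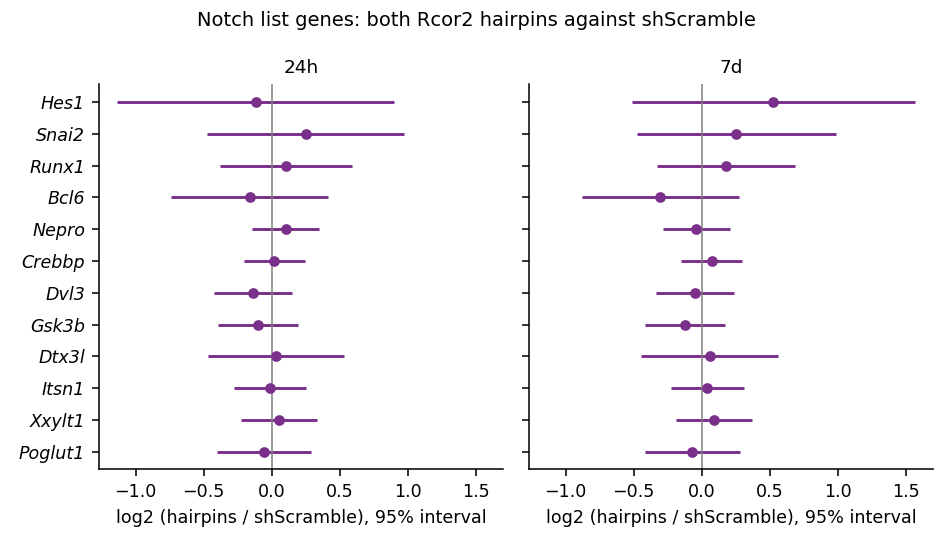
Log2 difference of both Rcor2 hairpins over shScramble for the 12 Notch pathway genes at 24h and at 7d; points are fitted values and bars 95% intervals. Every interval holds 0.

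The stretch holds 10 further genes of the Notch pathway, from a list of 47 entries. The list was chosen with earlier results of these data known, which limits what its calls over time can show. The 35 entries that lie elsewhere, receptors, ligands and RBPJ among them, were not analysed here. All 12 in the stretch, Hes1 and Poglut1 included, passed the filter on low counts. Of the 10 others, 1 was lower at 24h than at 0h, 3 were lower at 7d than at 0h and 1 was lower at 7d than at 24h by edgeR's quasi-likelihood test at an adjusted p of 0.05, and none was higher. In the same comparisons the share of all 373 genes called lower was 3.22%, 12.3% and 7.51%. The median log2 difference of the 10 was -0.23, -0.23 and 0.02, against 0.01, 0.00 and -0.01 over all tested genes. With sample 1 at 0h in place of sample 2, 4 of the 10 were lower and 1 was higher at 24h than at 0h. At 7d, 5 were lower and 1 was higher. That setting also called more of all genes tested, as given at the end, so the shares above are not its background. Its own share is not given here, so its calls are not read as particular to the pathway genes. None of the 10 was called in a hairpin comparison at 24h, at 7d or over both, and at an unadjusted p of 0.05 none passed either. At 0h, with 1 library per construct, their log2 differences of hairpins minus shScramble ran from -0.15 for Nepro to 0.68 for Bcl6. Crebbp had 0.39 there.

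Runx1 and Snai2 are, with Hes1, the genes of the list reported as Notch targets. Runx1, a transcription factor of the Runt family that is best known in blood formation, fell at each step. It had a lowest, median and highest level of 1738, 1864 and 2115 CPM at 0h, of 859, 1123 and 1262 CPM at 24h, and of 455, 682 and 786 CPM at 7d. The libraries of the 3 times did not overlap. The log2 difference of Runx1 was -0.83 for 24h minus 0h (SE 0.17, adjusted p = 0.013), -1.59 for 7d minus 0h (SE 0.17, adjusted p = 8.23e-05) and -0.77 for 7d minus 24h (SE 0.15, adjusted p = 0.0079), all by edgeR. The call for 24h minus 0h was lost when all rows of the table were tested (adjusted p = 0.093), without the shScramble library at 0h (0.052) and without the shRcor2-18 library at 0h (0.092). Runx1 is gene 606 of the 610, near the end of the stretch.

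Snai2, also known as Slug, is a zinc finger repressor of epithelial genes. It had a lowest, median and highest level of 2485, 3549 and 3559 CPM at 0h, of 1396, 2078 and 2703 CPM at 24h, and of 1210, 1799 and 2273 CPM at 7d. The 7d libraries lay below the 0h libraries, while those of 24h overlapped both. The log2 difference of Snai2 was -0.64 for 24h minus 0h (SE 0.25, adjusted p = 0.19) and -0.86 for 7d minus 0h (SE 0.25, adjusted p = 0.038), by edgeR. The call for 7d was lost in 16 of 27 other settings, among them without any of the 3 libraries at 0h, and with sample 1 at 0h in place of sample 2 the 24h difference turned to 0.07.

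Bcl6 and Nepro act on the output of the pathway, Bcl6 as a repressor known to silence Notch targets and Nepro as a nuclear protein described downstream of Notch in neural cells. Bcl6 had a lowest, median and highest level of 1716, 2684 and 2830 CPM at 0h, of 1156, 1222 and 2029 CPM at 24h, and of 1163, 1360 and 2120 CPM at 7d, so that its times overlapped. The log2 difference of Bcl6 was -0.70 for 24h minus 0h (SE 0.21, adjusted p = 0.092) and -0.66 for 7d minus 0h (SE 0.21, adjusted p = 0.046), by edgeR. The 24h difference of Bcl6 passed in 9 of 27 other settings. The 7d call was lost in 11 of 27, among them without the shRcor2-18 or the shRcor2-20 library at 0h. Nepro, which carries an older symbol in the table and was matched by its identifier, kept a mean between 1654 and 1854 CPM and was not called, except as lower with sample 1 at 0h, where the log2 difference of Nepro was -0.41 at 24h (adjusted p = 0.0054 by edgeR) and -0.24 at 7d (adjusted p = 0.044 by edgeR).

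Libraries of the same construct and number deviated together between 24h and 7d, with correlations of 0.28 to 0.46, so the fit was repeated with that pairing as a block. Libraries of the same number in different constructs correlated at 0.0024 to 0.31 within a time, which reaches into that range. At 0h only sample 2 was used, so the block takes the sample difference at 0h from the later times. With the block, Bcl6 (log2 difference -0.96, adjusted p = 5.35e-07), Snai2 (-0.37, adjusted p = 0.014) and Runx1 (-0.68, adjusted p = 0.00038) were lower at 24h than at 0h. At 7d, Gsk3b was lower than at 0h as well with the block (-0.28, adjusted p = 0.015), besides Bcl6, Snai2 and Runx1. From 24h to 7d, Snai2 (-0.22, adjusted p = 0.037) and Gsk3b (-0.20, adjusted p = 0.024) were lower with the block, besides Runx1. The block also raised the number called over all genes for 24h minus 0h and 7d minus 24h, as given at the end. Its calls are therefore not read as particular to the pathway genes.

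Xxylt1, the partner of Poglut1 on the same sugar chain, had 3992 to 4253 CPM at 0h, 3115 to 3760 CPM at 24h and 3053 to 3879 CPM at 7d. Each later library lay below each 0h library, yet the test did not call it: the log2 difference of Xxylt1 was -0.30 for 24h minus 0h (SE 0.10, adjusted p = 0.13) and -0.28 for 7d minus 0h (SE 0.10, adjusted p = 0.069), by edgeR. Xxylt1 was called lower with all 18 libraries (-0.48 at 24h, adjusted p = 0.0092, and -0.47 at 7d, adjusted p = 0.0048, by edgeR) and with sample 1 at 0h in place of sample 2 (-0.65, adjusted p = 0.00073, and -0.64, adjusted p = 0.00047, by edgeR). At 7d it was also called without sample 2 of shRcor2-18 at 7d (-0.33, adjusted p = 0.049 by edgeR). Poglut1 had values of 0.32 and 0.20 in the same comparisons, which share the 0h libraries. Poglut1 thus lay above 0 and Xxylt1 below 0, but the first was not tested over time and the second not called. The 0h libraries used are all sample 2, which had less Poglut1 than sample 1 in each group with both. On sample 2 alone the Poglut1 differences were smaller, as given above. With sample 1 at 0h, Poglut1 turned to -0.02 for 7d minus 0h.

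The 5 remaining genes of the list were not called with time in the fit of 15 libraries without a block. Dtx3l, a ubiquitin ligase of the Deltex family, averaged 1160, 966 and 987 CPM at 0h, 24h and 7d, and Itsn1, an endocytic scaffold, 3732, 3961 and 3648 CPM. Crebbp, the acetyltransferase that serves as coactivator of many factors, averaged 3495, 3178 and 3360 CPM at the same times. Dvl3, a cytoplasmic protein of the Wnt pathway that also binds Notch, averaged 2576, 2251 and 2558 CPM, and Gsk3b, a kinase shared by both pathways, 5556, 5456 and 4733 CPM. Besides its calls with the block, Gsk3b was called lower for 7d minus 0h with all 18 libraries (-0.33, adjusted p = 0.029 by edgeR) and with sample 1 at 0h (-0.42, adjusted p = 0.0081 by edgeR). With sample 1 at 0h, Itsn1 was called higher, by 0.89 for 24h minus 0h (adjusted p = 8.18e-05 by edgeR) and by 0.77 for 7d minus 0h (adjusted p = 0.00016 by edgeR).

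**Figure D4:**
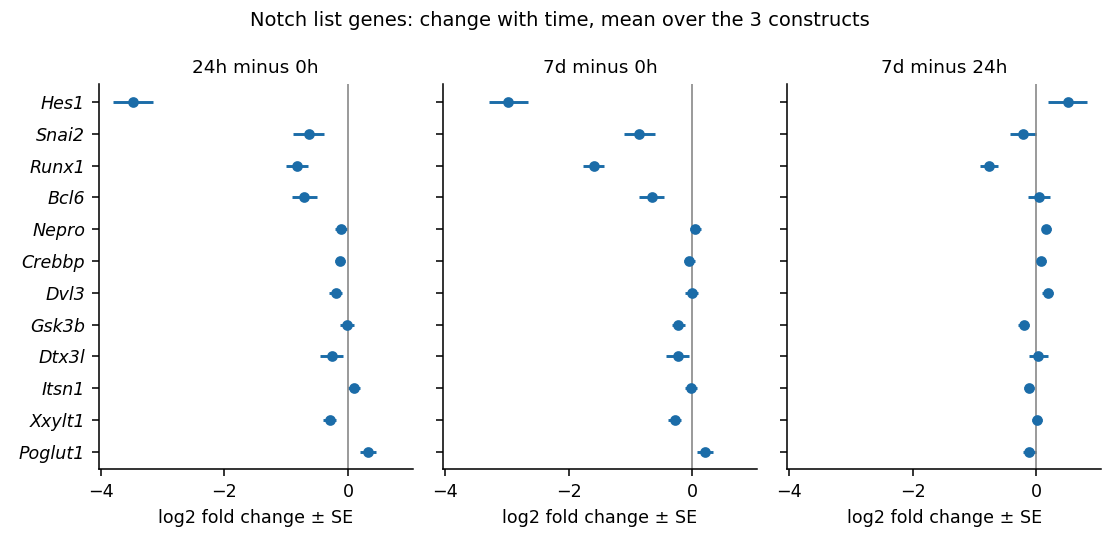
Log2 difference between times, as the mean over the 3 constructs, for the 12 Notch pathway genes; points are fitted values and bars are SE. Hes1 lies at -3.48 and -2.98 against 0h, Runx1 at -0.83 and -1.59, and Poglut1 at 0.32 and 0.20.

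Of the 4 coding neighbours of Hes1 along the chromosome, only Opa1 and Lrrc15 passed the filter and were tested. Lrrc15 was called as lower at the later times than at 0h. Of all 373 genes, 3.22% were called lower for 24h minus 0h and 12.3% for 7d minus 0h. Opa1, a mitochondrial fusion GTPase directly before Hes1, averaged 3135, 3348 and 3294 CPM at 0h, 24h and 7d and was not called. Atp13a4 had no count in any library, and Cpn2 had 0 to 7 reads per library. Lrrc15, a leucine-rich repeat membrane protein, averaged 829, 337 and 141 CPM and fell by 1.22 on the log2 scale for 24h minus 0h (SE 0.22, adjusted p = 0.0081 by edgeR). Its log2 difference for 7d minus 0h was -2.47 (SE 0.23, adjusted p = 4.51e-05 by edgeR).

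The neighbours of Poglut1 are Cd80 and Timmdc1 on one side and Tmem39a and Arhgap31 on the other. Tmem39a rose by a log2 difference of 0.57 for 7d minus 0h (SE 0.14, adjusted p = 0.015 by edgeR). Arhgap31, a GTPase activating protein for Rac and Cdc42, averaged 5046, 6361 and 3165 CPM at 0h, 24h and 7d. Its log2 difference was 0.34 for 24h minus 0h (SE 0.12, adjusted p = 0.13) and -0.67 for 7d minus 0h (SE 0.11, adjusted p = 0.0018), by edgeR. Timmdc1, an assembly factor of respiratory complex I, averaged 762, 754 and 819 CPM at 0h, 24h and 7d and was not called. Cd80, a ligand of T cell costimulation known from antigen-presenting cells, averaged 2373, 2430 and 2841 CPM, a high level for a preosteoblast line. Cd80 is gene 361 and Poglut1 gene 363 of the stretch, and whether the counts beside either name are its own was not tested.

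The genes whose log2 levels were most like those of Hes1 over the 15 libraries, of 371 ranked, were Tnk2 (Pearson r = 0.87), Ifngr2 (0.86), Ccdc80 (0.85), Carhsp1 (0.81) and Xxylt1 (0.79). All 5 had a higher mean at 0h than at the later times, as Hes1 had. The genes most like Poglut1 were Hcls1 (0.85), Fbxo40 (0.84), St6gal1 (0.83), Bbx (0.79) and Igf2bp2 (0.78). Hcls1 is a leukocyte gene with 1 to 32 reads per library. Fbxo40, known from muscle, had its 4 highest levels in the sample 1 libraries of shRcor2-18 and shScramble, with 1131 and 788 CPM at 24h and 7d with shRcor2-18 and 1281 and 975 CPM with shScramble. These are also the libraries with the highest Poglut1 levels of their times. These likenesses are descriptions, since libraries of one time share that time and each library carries its own scaling.

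Sums of some marker lists of other cell types differed between times, and others did not. The summed level of the 8 leukocyte markers, 3 of them without a count, was 2271 to 2661 CPM at 0h, 2461 to 2716 CPM at 24h and 2963 to 3795 CPM at 7d. Most of it came from Cd80, and Btla averaged 37.1, 107 and 596 CPM at the same times. The summed level of the 4 epithelial markers was 3167 to 4202 CPM at 0h, 3877 to 7841 CPM at 24h and 5099 to 8365 CPM at 7d. These markers went different ways: Trp63 averaged 3203, 4646 and 5713 CPM and Ppl 74.4, 107 and 201 CPM, while Cldn1 averaged 514, 357 and 372 CPM and Csta1 was near 0.

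Myh11, the smooth muscle marker, averaged 105, 67.3 and 57.2 CPM at 0h, 24h and 7d. The sum of the 3 endothelial and platelet markers overlapped at all times, with 2223 to 2466 CPM at 0h, 2247 to 2753 CPM at 24h and 2137 to 2480 CPM at 7d. Nearly all of it came from Gp1bb, a platelet marker, with 2127 to 2742 CPM. Cldn5, the endothelial marker, had no count in any library. The sum of the 5 hepatocyte markers overlapped as well, with 274 to 315 CPM at 0h, 230 to 381 CPM at 24h and 75.8 to 454 CPM at 7d. The adipocyte marker and the sum of the 4 germ cell markers stayed at or under 12.4 CPM, and the sum of the 6 neural markers at or under 42.1 CPM, in every library. The part of these levels in the time courses of Hes1 and the other pathway genes was not tested.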

How the data were processed

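The values are whole numbers, raw read counts for each gene of the series, in a single table as the authors deposited it. Per the submitters' processing notes, the tools were FastQC, TopHat2 2.0.9, DESeq and DESeq2, and the build was mm9. How reads were counted, with which annotation and on which strand, is not given in the sources used here, so reads from antisense transcripts cannot be told apart. Identifiers of 39632 of 40620 rows were found in GENCODE vM21, which served for gene type, order and exon length.

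Group, time and sample number come from the sample titles. edgeR 4.0.16 in R 4.3.3 (filterByExpr, TMM, robust dispersions, glmQLFit, glmQLFTest) was fitted to 9 group means over 15 libraries and 373 genes, with 6 residual degrees of freedom and Benjamini-Hochberg adjustment at 0.05. At 0h each construct had 1 library, assumed to vary like the other groups. Time comparisons average the 3 constructs. SE is the log2 fold change over the square root of F. On simulated counts with 200 changed genes the script was tested. Same-construct, same-number libraries correlated at 0.28 to 0.46 between 24h and 7d in deviations from their group means, a pairing that comes from the values and not the labels. Hes1, Poglut1 and the lists were chosen with earlier results of these data known. Named genes are both members, the pathway genes of the stretch, 2 coding genes on either side of each member, and the 5 most like each member. Alternatives were other scalings, filters, library sets, blocks and DESeq2 1.42.0. Plots used matplotlib 3.10.9.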

Additional observations from a re-analysis of the deposited data

Results flagged for a closer look

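The 3 libraries of sample 1 at 0h, which entered no comparison, held counts for both genes. Scaled with all 18 libraries, Hes1 had 239 CPM with shRcor2-18, 406 CPM with shRcor2-20 and 237 CPM with shScramble in them. Poglut1 had 3740 CPM with shRcor2-18, 4121 CPM with shRcor2-20 and 3853 CPM with shScramble in them.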

How the results depend on the processing

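Hes1 kept its direction in all settings for the 3 comparisons of times. In the setting where it was smallest in size, the log2 difference of Hes1 for 7d minus 0h was -2.62. Leaving out 1 library at a time, its log2 difference lay between -3.89 and -3.04 for 24h minus 0h, the latter without the shRcor2-18 library at 0h, between -3.19 and -2.82 for 7d minus 0h, and between 0.36 and 0.68 for 7d minus 24h. Poglut1 lay between 0.26 and 0.38, between 0.13 and 0.28, and between -0.20 and -0.05. With sample 1 at 0h in place of sample 2, chosen after seeing the data like the fit on sample 2 alone, Poglut1 had 0.097 for 24h minus 0h and -0.021 for 7d minus 0h.

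Genes called for 24h minus 0h numbered 21 and, when all rows were tested, 223. Testing all rows takes in genes outside the stretch, so its numbers here and below are out of more than 373 genes. For 24h minus 0h they were 54 with all 18 libraries, 42 with the replicate block by construct and number, 45 with blocks of closest libraries, 47 with sample 2 alone and 118 with sample 1 at 0h. For 7d minus 0h they numbered 87, against 787, 139 and 175 for all rows, all 18 libraries and sample 1 at 0h. For 7d minus 24h they numbered 59, against 349 for all rows, and 108 and 115 with these 2 blocks. Without 1 library the counts were 13 to 25, 53 to 91 and 32 to 59; 24h and 7d against 0h fell to 13 and 53 without the shScramble or the shRcor2-18 library at 0h, and 7d minus 24h to 38, 35, 32 and 37 without shScramble sample 2 or shRcor2-20 sample 1 at 24h, or shRcor2-18 or shRcor2-20 sample 2 at 7d.

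Hairpin comparisons called 0 genes; with all rows they called 6 for 24h and 7d together, 2 for 24h, 5 for 7d, 18 for 0h and 7 for the change between times. The replicate block by number alone, which the labels do not tie to a shared culture, called 1 for 24h and 7d together, and closest libraries 1 for 0h. With closest libraries as blocks, hairpins minus shScramble turned to -0.11 for Hes1 and 0.074 for Poglut1 over 24h and 7d, and Poglut1 to 0.077 at 24h, 0.070 at 7d and 0.0076 at 0h. At 0h, Hes1 turned to -0.25 with these blocks, -0.014 by library size and -0.0068 with TMM over all rows. Without 1 library, Hes1 had 0.0017 to 0.46 over 24h and 7d, -0.50 to 0.39 at 24h, 0.21 to 0.92 at 7d, -0.13 to 0.21 at 0h and 0.13 to 1.04 for the change; Poglut1 had -0.13 to 0.0018, -0.15 to 0.040, -0.21 to 0.072, -0.20 to -0.16 and -0.15 to 0.14. None of these was called.

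Among pathway genes not called in the 15 libraries, signs turned, and Itsn1 and Nepro with sample 1 at 0h were then called. For 7d minus 0h, Itsn1 had 0.030, Crebbp 0.013 and Dvl3 0.049 with TMM over all rows; Itsn1 0.32, Dvl3 0.053 and Nepro -0.10 with all 18 libraries; Itsn1 0.77, Crebbp 0.025, Dvl3 0.11 and Nepro -0.24 with sample 1 at 0h; Dvl3 0.00072 without a filter and 0.022 with closest libraries. For 24h minus 0h, Snai2 had 0.073 with sample 1 at 0h. Without 1 library, Crebbp had -0.25 to 0.0039 and Gsk3b -0.17 to 0.095 for 24h minus 0h; Itsn1 -0.099 to 0.12, Crebbp -0.15 to 0.027 and Dvl3 -0.065 to 0.068 for 7d minus 0h; Xxylt1 -0.042 to 0.074, Dtx3l -0.068 to 0.15 and Bcl6 -0.062 to 0.18 for 7d minus 24h. The cause was not tested in any of these. The 4 to 23 reads of Hes1 after 0h limit what its hairpin comparison can show.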
